A study of Mus musculus with 36 samples.

Results

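The genes described here encode the ion channels and channel subunits that set flagellar motility in sperm: Catsper1, Catsper2, Catsper3, Catsper4, Catsperb, Catsperd, Kcnu1 and Hvcn1. These 8 genes were taken by symbol, matched to the Ensembl identifiers of the count tables, and all 8 were present in the tables of all 6 tissues, out of 55991 gene identifiers in any table. The study asked how a short paternal diet acts on germ cells and on offspring in C57BL/6 wildtype mice, which the methods name as C57BL/6N. Males were 6 weeks old at the start and were fed for 2 weeks on a High Fat Diet (HFD, 60% of kcal from fat) or a Low Fat Diet (LFD, 10% of kcal from fat). Round spermatids, the haploid cells before they elongate, and cauda spermatozoa, the mature sperm of the last part of the epididymis, were collected from these males. Morulae, early embryos before the blastocyst, were cultured after in vitro fertilisation of oocytes from unexposed wildtype females with sperm of males on either diet. Liver, epididymal white adipose tissue (eWAT) and gastrocnemius muscle came from offspring of HFD males, which the labels divide into HFDt and HFDi.

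There were 6 RNA-seq libraries per tissue, 36 in all. Diet was compared only in sperm, with 3 HFD libraries (called HFD 1, 3 and 4 after the numbers in their column names) and 3 LFD libraries (LFD 1, 2 and 4). The round spermatid libraries are labelled by diet, 3 and 3, but their column names do not give it, so they were used as 1 group. Round spermatids had been enriched by density gradient and sperm by swim-up with lysis of somatic cells, so both are populations of cells and neither is a single cell type by construction. Total counts were 20138842 to 31056066 in round spermatids and 2560219 to 4062321 in sperm, so that 3 counts, the floor used for a count of 0, stood for at most 0.149 counts relative to the library total (CPM) in a round spermatid library and at most 1.17 CPM in a sperm library. All intervals and floors given here cover counting error only. Genes encoded by mitochondrial DNA took 1.96% to 2.38% of the counts in round spermatids, 78.1% to 84.3% in HFD sperm and 43.5% to 64.7% in LFD sperm. All 7 spermatid markers looked up (Prm1, Prm2, Tnp1, Tnp2, Acrv1, Odf1 and Akap4) had counts in every round spermatid and every HFD sperm library, and 6 of 7 had them in every LFD sperm library.

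CatSper is a calcium channel of the sperm tail, and male mice without it are infertile because their sperm cannot switch to the vigorous beat called hyperactivation. Its pore is built from the proteins of Catsper1 to Catsper4, and Catsperb and Catsperd encode auxiliary subunits with large parts outside the cell. Kcnu1 encodes Slo3, the potassium channel that sets the membrane potential of mouse sperm after an alkaline shift of the cell interior, and Hvcn1 encodes the voltage-gated proton channel Hv1, which is also known from B cells and phagocytes. The genes of the CatSper complex are transcribed in the testis during and after meiosis. The nuclear genome of mature sperm is regarded as transcriptionally silent, so RNA of such genes in sperm is held to remain largely from earlier stages. The paper states, from earlier work, that mitochondrial DNA is transcribed in mature sperm and that nuclear-encoded tRNAs are mainly gained during epididymal transit.

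In the GRCm38 build used by the tables, the pore genes lie on 4 chromosomes: Catsper1 (ENSMUSG00000038498) at 19:5335741-5344153 on the plus strand, Catsper2 (ENSMUSG00000033486) at 2:121392631-121413792 on the minus strand, Catsper3 (ENSMUSG00000021499) at 13:55784568-55808998 on the plus strand and Catsper4 (ENSMUSG00000048003) at 4:134211970-134227383 on the minus strand. Catsperb (ENSMUSG00000047014) lies at 12:101404653-101626009, Catsperd (ENSMUSG00000040828) at 17:56628143-56664456, Kcnu1 (ENSMUSG00000031576) at 8:25849623-25937939 and Hvcn1 (ENSMUSG00000064267) at 5:122206804-122242297, all on the plus strand. Exons of 2 of the 8 genes share bases with a gene on the other strand in the GENCODE M21 annotation: Catsper2 shares 18 bases at its start with Pdia3, a protein disulfide isomerase of the endoplasmic reticulum, and Hvcn1 shares 1574 bases at its 3′ end with Tctn1. Whether counting used strand is not given in the sources used here, so reads from these stretches cannot be assigned with certainty, and for Hvcn1 the shared stretch is a large part of its 3563 counted bases.

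RefSeq promoter entries (GRCm38.p6) were found for 5 of the 8 genes, Catsper2, Catsper3, Catsper4, Catsperb and Catsperd. Because these genes were high in the same cells, the stretch just before the start is shown for 3 of them, 5′ to 3′ on the strand of the gene, with each CG dinucleotide in capitals. The windows are chr13:55784429-55784567 (plus strand) for Catsper3, chr4:134227384-134227533 (minus strand) for Catsper4 and chr12:101404523-101404652 (plus strand) for Catsperb. The Catsper3 and Catsperb windows end where the first annotated exon of the gene begins.
Catsper3: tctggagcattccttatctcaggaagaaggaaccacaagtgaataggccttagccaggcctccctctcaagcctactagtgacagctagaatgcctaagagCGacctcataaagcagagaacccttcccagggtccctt
Catsper4: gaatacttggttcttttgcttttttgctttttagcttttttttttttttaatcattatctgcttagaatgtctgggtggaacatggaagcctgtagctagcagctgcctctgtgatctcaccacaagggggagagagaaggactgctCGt
Catsperb: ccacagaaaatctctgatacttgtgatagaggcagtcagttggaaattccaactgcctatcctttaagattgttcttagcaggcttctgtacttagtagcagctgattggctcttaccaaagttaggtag

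These stretches hold at most 1 CG each, none in that of Catsperb, and Catsper2 stood apart from them by its CG content. Over the full 250 bases before the start, Catsper2 had 35 CG dinucleotides and a GC content of 74.8%, and 2.97% of the 32841 promoter entries of the genome had at least as many. Catsper3 had 2, and 29.0% of all entries had at most 2. Catsper4 and Catsperb had 1 each, which 18.8% of all entries did not exceed. Catsperd has 2 entries, with 25 and 11 CG dinucleotides, against a median of 6 over all entries. The stretch before Catsper2 lies within the first exon and 5′ untranslated region of Pdia3, which starts inside Catsper2 on the other strand, and it is therefore not shown.

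Catsper1, Catsper2, Catsper3, Catsper4, Catsperb, Catsperd and Kcnu1 were high in all 6 round spermatid libraries and low everywhere else, and Hvcn1 showed another pattern altogether (see the plot of levels by tissue). In round spermatids Catsper1 ranged from 183 to 214 CPM with a median of 199.5, and Catsper2 from 350.2 to 378 CPM with a median of 365. Catsper3 was at 70.1 to 85.6 CPM and Catsper4 at 142 to 171 CPM. No round spermatid library of these pore genes came near any library of another tissue. The auxiliary subunits were at similar levels, 113 to 139.6 CPM for Catsperb and 131 to 154 CPM for Catsperd, and Kcnu1 was at 145 to 165 CPM. Hvcn1 had 8 to 16 counts per library, which is 0.324 to 0.637 CPM.

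**Figure D1:**
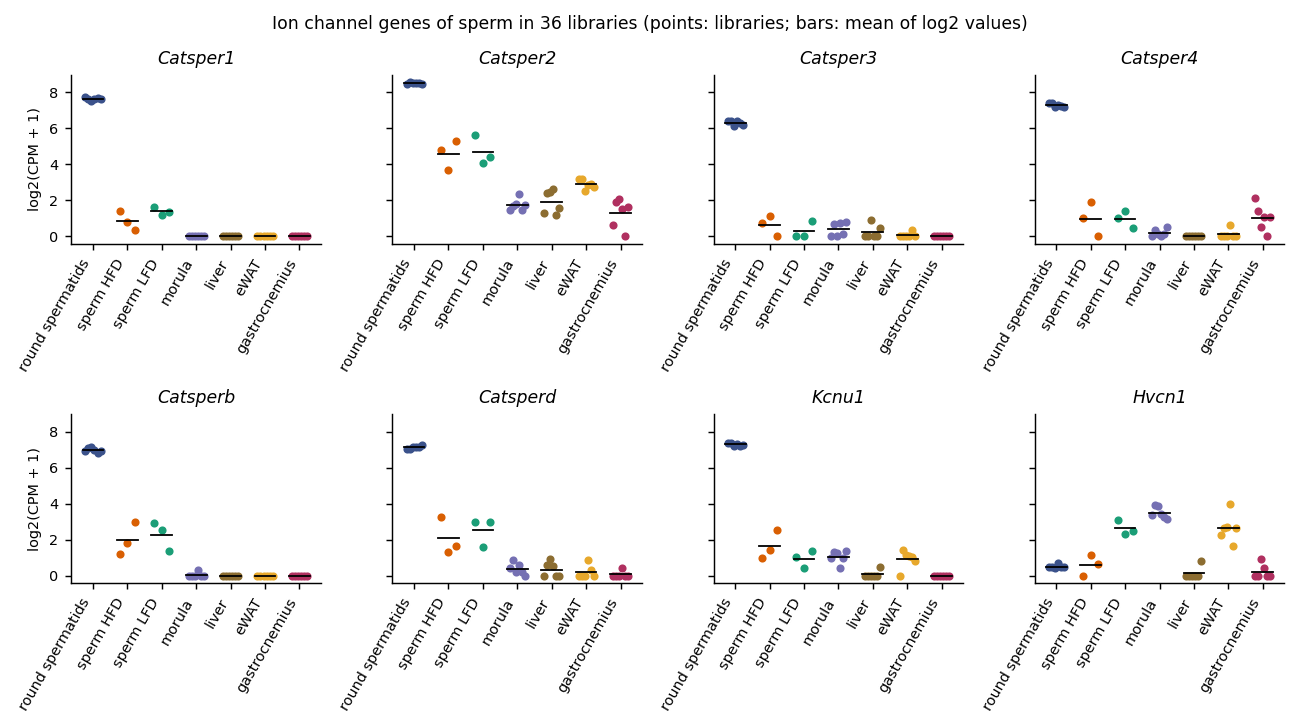
Level of each of the 8 genes in the 36 libraries, as log2(CPM + 1), with 1 panel per gene, 1 point per library and a bar at the mean of each group (6 libraries per tissue, sperm divided into 3 HFD and 3 LFD). In 7 panels the round spermatid points stand above all other points, while in the Hvcn1 panel the morula, eWAT and LFD sperm points are the highest. Liver, eWAT and gastrocnemius were made with a 3′ tag kit, so their heights are not on the same footing as those of the other groups.

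To compare levels between genes, the round spermatid counts were divided by the counted length of each gene and by the library total (RPKM). Catsper2 at 98.5 ± 2.83 RPKM and Catsper1 at 96.6 ± 4.77 RPKM (SD, n = 6) came first, and their libraries overlapped, Catsper2 being the higher of the pair in 4 of 6. Catsper4 followed at 74.0 ± 6.07 RPKM, below Catsper1 in 6 of 6 libraries. Catsper3 at 58.1 ± 4.71 and Catsperd at 54.8 ± 3.32 RPKM overlapped, and Catsper3 was the higher in 4 of 6 libraries. Kcnu1 at 41.7 ± 2.31 RPKM lay under Catsperd, and Catsperb at 22.8 ± 1.78 RPKM under Kcnu1, each in 6 of 6 libraries without overlap. Hvcn1 came last at 0.118 ± 0.0309 RPKM, so that Catsperb exceeded it by 128-fold to 278-fold within a library.

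These values put the first 7 genes between the 93.1 and the 98.5 percentile of the 41316 genes with a count in round spermatids, and Hvcn1 at the 30.9 percentile. The pore subunits did not contribute equally. Per length, Catsper1 gave 29.5% ± 0.933 (SD, n = 6) of the summed level of the 4 pore genes, Catsper2 30.2% ± 1.49, Catsper4 22.6% ± 0.884 and Catsper3 17.7% ± 0.687. Each share was nearly the same in all 6 libraries, that of Catsper3 lying between 16.7% and 18.4%. The level of Catsperd rests on 2565 counted bases in the round spermatid table against 3590 in the sperm and morula tables, so its place in the order depends on the gene model.

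**Figure D2:**
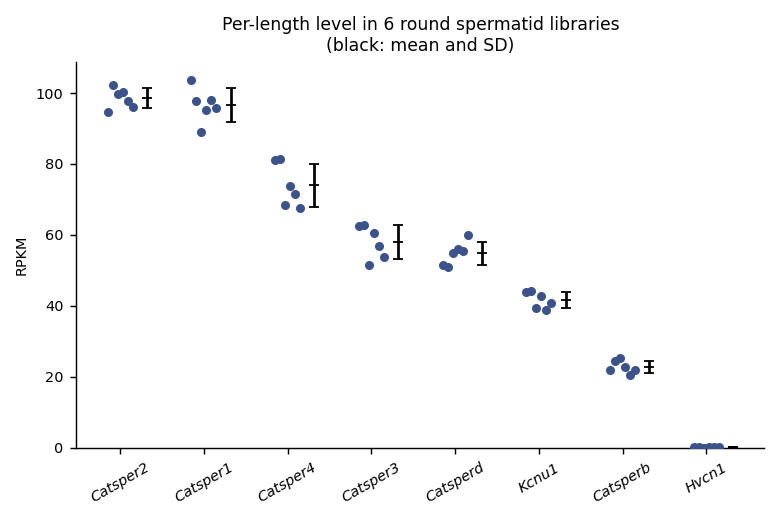
Level per length (RPKM) of the 8 genes in the 6 round spermatid libraries, ordered by mean, with 1 blue point per library and the mean with SD in black. The genes fall from 98.5 RPKM for Catsper2 to 22.8 for Catsperb, with overlap only between Catsper2 and Catsper1 and between Catsper3 and Catsperd, and Hvcn1 lies at 0.118.

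The counts were then compared between round spermatids and sperm, which were both made into whole-transcript libraries with the same kit. Read layout (paired in round spermatids, single in sperm) and sequencing run cannot be told apart from the cell stage in this comparison, and in bulk samples fewer cells of a type and less RNA per cell cannot be told apart either. With edgeR's quasi-likelihood test over 20791 genes, 7 of the 8 genes were higher in round spermatids at a Benjamini-Hochberg adjusted p under 0.05, where 52.3% of all genes tested were. The other one, Hvcn1, was lower, as were 25.1% of all genes tested. A call in this comparison was therefore common. Catsper1, Catsper3, Catsper4 and Kcnu1 did not pass the filter on low counts when it was set on the sperm libraries alone. They were tested here together with the round spermatids, where they were high, so a difference can be built into their selection. Neither the count of called genes nor their median is therefore support for one. The median log2 fold change over the 8 genes was 4.15, against 1.37 over all genes tested.

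Counts of the pore genes in sperm were few. Catsper1 had 5, 3 and 1 counts in the HFD sperm libraries 1, 3 and 4, and 6, 4 and 4 in the LFD libraries 1, 2 and 4. Catsper3 had 2, 5 and 0 counts in the HFD libraries and 0, 0 and 2 in the LFD libraries. Catsper4 had 3, 11 and 0 counts in the HFD libraries and 3, 5 and 1 in the LFD libraries. At such counts no single sperm library measures these 3 genes well, and every sperm library lay below every round spermatid library for each of them. Their log2 fold changes over sperm were 5.77 ± 0.28 for Catsper1 (SE, adjusted p = 6.06e-10 in edgeR), 6.06 ± 0.40 for Catsper3 (adjusted p = 8.64e-09) and 5.46 ± 0.39 for Catsper4 (adjusted p = 1.68e-08).

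Catsper2 was the pore gene with the most counts in sperm. It had 81, 48 and 141 counts in HFD libraries 1, 3 and 4, and 141, 49 and 52 in LFD libraries 1, 2 and 4, which is 11.8 to 48.4 CPM. Every sperm library lay below every round spermatid library, yet the difference was the smallest among the 7 genes, 2.01 ± 0.38 on the log2 scale (4.02-fold, adjusted p = 0.000242 in edgeR) and 0.64 above the median of all genes tested. Without library HFD 3 it was 0.20 under the median of that fit. Fitted against HFD sperm alone it was 1.44, again 0.20 under the median of all genes, and against LFD sperm alone it was 2.84.

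The auxiliary subunits held a middle place. Catsperb had 4, 10 and 25 counts in HFD sperm libraries 1, 3 and 4 and 19, 15 and 4 in LFD libraries 1, 2 and 4. Catsperd had 26, 6 and 8 counts in the HFD libraries and 20, 6 and 18 in the LFD libraries. The spread within each diet was as wide as that between them. The log2 fold changes of round spermatids over sperm were 3.27 ± 0.41 for Catsperb (adjusted p = 4.93e-06 in edgeR) and 3.32 ± 0.37 for Catsperd (adjusted p = 1.61e-06), and the latter compares the shorter gene model of the round spermatid table with the longer one of the sperm table.

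Kcnu1 had 3, 7 and 18 counts in HFD sperm libraries 1, 3 and 4 and 3, 1 and 4 in LFD libraries 1, 2 and 4, and was higher in round spermatids by 4.99 ± 0.36 on the log2 scale (adjusted p = 2.26e-08 in edgeR). Hvcn1 had 0, 5 and 2 counts in the HFD libraries and 22, 12 and 12 in the LFD libraries. Relative to library totals the HFD sperm libraries, at 0 to 1.23 CPM, spanned the range of the round spermatid libraries, and the LFD libraries, at 3.93 to 7.55 CPM, lay above them. In the edgeR fit Hvcn1 was lower in round spermatids than in sperm by a log2 fold change of -3.75 ± 0.59 (adjusted p = 4.67e-05), and the value was -2.85 against HFD sperm alone and -4.42 against LFD sperm alone. Hvcn1 passed the filter on low counts through the LFD sperm libraries, where it was highest.

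**Figure D3:**
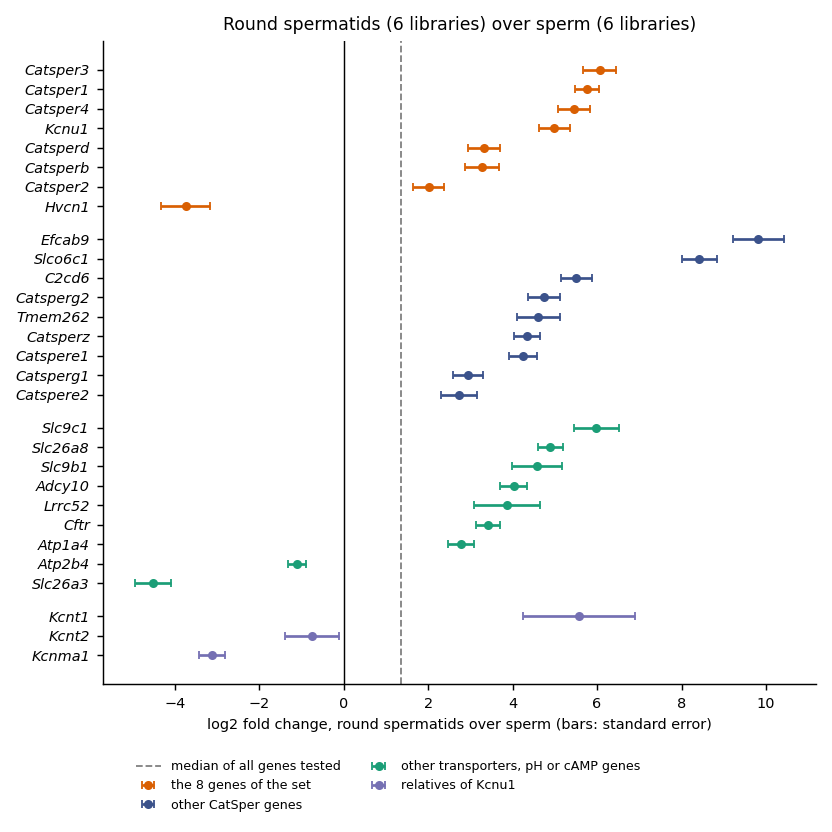
Log2 fold change of round spermatids (6 libraries) over sperm (6 libraries) in edgeR, with standard errors, for the 8 genes (orange) and 3 lists of related genes; the dashed line is the median of all genes tested, 1.37. Of the 8 genes, 7 lie right of the dashed line, Catsper2 closest to it at 2.01. Hvcn1 lies at -3.75, on the same side of 0 as Slc26a3, Kcnma1, Atp2b4 and Kcnt2.

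The size of these differences followed the scaling, which moved all genes together. With library totals in place of TMM factors the median of all genes tested rose from 1.37 to 2.94 and the share of higher calls from 67.6% to 84.6%, and the log2 fold changes became 7.39 for Catsper1, 3.76 for Catsper2, 7.62 for Catsper3, 7.06 for Catsper4, 4.99 for Catsperb, 4.95 for Catsperd, 6.63 for Kcnu1 and -2.13 for Hvcn1. Single sperm libraries also moved some values by over 1.5 times: Catsper3 was at 8.92 without LFD 4 and at 6.65 without HFD 3, Catsper4 at 6.25 without HFD 3, Catsperb at 4.02 and Kcnu1 at 5.72 without HFD 4, Catsperd at 4.07 without HFD 1, Catsper2 at 2.61 without LFD 1 and Hvcn1 at -3.14 without HFD 3. Against LFD sperm alone and HFD sperm alone, Catsper3 was at 7.66 and 4.67, Catsper4 at 6.47 and 4.67, Kcnu1 at 6.65 and 3.60, Catsperb at 4.06 and 2.81 and Catsperd at 4.04 and 2.91.

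A comparison that needs no scaling is the make-up of the counts within a library. Hvcn1 was set aside, and the counts of the other 7 genes were expressed as shares of their sum. In sperm this sum was small, 80 counts in LFD 2 and 124 in HFD 1. In round spermatids the 7 genes had 111 to 141 counts per 1000 counts of the 7 spermatid markers, against 7.39 to 12.4 in sperm. The marker sum rests on different genes at each stage. After TMM scaling Odf1 averaged 569 CPM in round spermatids and 6283 CPM in sperm, and Prm2 1884 and 1549 CPM. Of the counts of the 7 genes, Catsper2 took 28.3% to 30.9% in round spermatids and 53.3% to 73.4% in sperm, without overlap between the 6 and 6 libraries. Catsper1 took 15.4% to 17.3% in round spermatids and 0.518% to 5.00% in sperm. Kcnu1 took 12.2% to 13.3% and 1.25% to 9.33% in the same order, and Catsper3 5.87% to 6.87% and 0% to 5.56%, so these 3 genes were lower in every sperm library. For Catsper4, Catsperb and Catsperd the ranges overlapped, those in sperm being the wider. No test was run on these shares, which were chosen after the values had been seen.

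**Figure D4:**
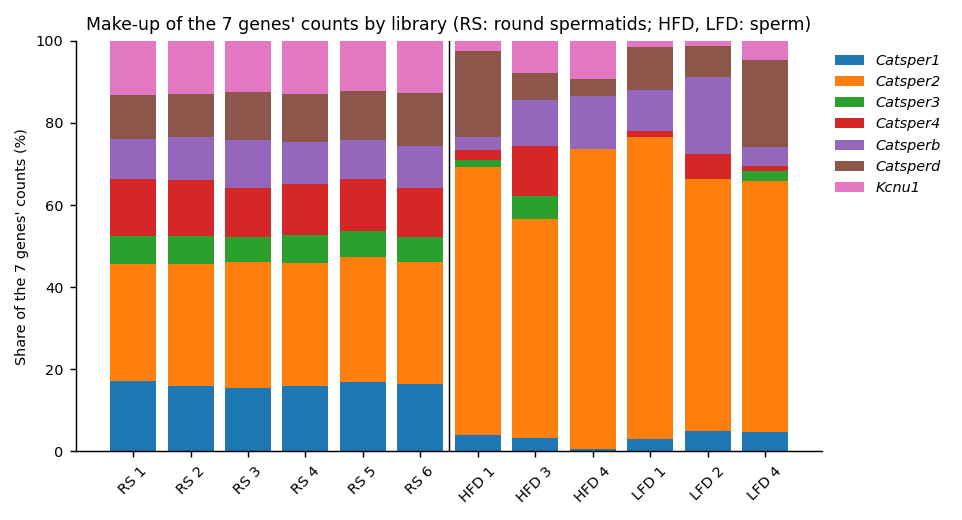
Make-up of the summed counts of Catsper1 to Catsper4, Catsperb, Catsperd and Kcnu1 in each of the 6 round spermatid libraries (RS) and the 6 sperm libraries (HFD, LFD), in percent of the 7 genes' counts. The round spermatid bars are nearly alike, while in every sperm bar Catsper2 takes over 53% of the counts, and the sperm bars rest on few counts, as few as 80 in LFD 2.

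Genes that work beside these channels were read from the same fit. Of the 10 other CatSper genes listed, 9 were tested and all 9 were higher in round spermatids, as were 52.3% of all genes tested. Their log2 fold changes ran from 2.73 for Catspere2 to 9.82 for Efcab9, a calcium-binding subunit. Among them, only Catsperg1, Catsperg2 and Catsperz passed the filter on low counts in the sperm libraries alone. The others were too low in sperm to pass it, so neither their count nor their fold changes are support for a difference. Catsperz, which pairs with Efcab9, was higher by 4.34 ± 0.30 and Slco6c1, a transporter found in the complex, by 8.42 ± 0.40. Tmem249 was not in the round spermatid table. Of 10 other genes for transport, cell pH or cAMP, 9 were tested: 7 were higher in round spermatids, among them Slc9c1, the sperm sodium-proton exchanger (5.98 ± 0.53), Adcy10, the bicarbonate-sensitive adenylyl cyclase (4.03 ± 0.32), and Lrrc52, the partner subunit of Slo3 (3.87 ± 0.78). Lower were Atp2b4, a plasma membrane calcium pump (-1.10 ± 0.22), and Slc26a3, a chloride-bicarbonate exchanger (-4.51 ± 0.43), as were Hvcn1 and 25.1% of all genes tested. Of the 7 higher genes, only Adcy10 and Atp1a4 passed the filter in the sperm libraries alone, so the same limit holds for the rest of them. Of the relatives of Kcnu1, Kcnt1 was higher (5.57 ± 1.32) but also failed the filter in the sperm libraries alone. Kcnma1, the Slo1 channel of many tissues, was lower (-3.12 ± 0.30), and Kcnt2 did not pass the test (-0.76 ± 0.64, adjusted p = 0.286 in edgeR).

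Of the markers of other cells, the summed CPM of those of the epididymal epithelium was higher in sperm than in round spermatids. Hvcn1 was higher in sperm in the edgeR fit, while as CPM its HFD sperm libraries spanned the round spermatid range. The summed leukocyte markers overlapped between sperm and round spermatids. The 5 epididymal epithelium markers looked up (Lcn5, Crisp1, Adam7, Cst8 and Rnase10) summed to 84.4 to 105 CPM in round spermatids, 1639 to 2879 CPM in HFD sperm and 3016 to 24985 CPM in LFD sperm. In sperm these sums came almost wholly from Crisp1 and Adam7, with 5742 and 393 of 6154 counts in HFD 1 and 60122 and 3826 of 63968 in LFD 4. Only 2 of the 5 markers had a count in every HFD sperm library, and 3 in every LFD sperm library. The 9 leukocyte markers summed to 11.6 to 17.4 CPM in round spermatids, 10.7 to 39.9 CPM in HFD sperm and 17.2 to 85.5 CPM in LFD sperm, and 7 of the 9 had a count in HFD sperm and 7 in LFD sperm. Their part in the level of Hvcn1 was not tested.

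The other question for sperm is whether diet changed these genes. With edgeR's quasi-likelihood test, 0.00% of the 8643 genes tested passed an adjusted p of 0.05 (0 genes, against 1124 at an unadjusted p under 0.05, 295 adjusted calls in DESeq2 and 0 in limma-voom). Of the 8 genes, 4 passed the filter on low counts, Catsper2, Catsperb, Catsperd and Hvcn1, and none of the 4 was called by edgeR, DESeq2 or limma-voom. DESeq2 gave no adjusted p for Catsperb and Hvcn1. Catsper2 alone had an unadjusted p under 0.05 in edgeR.

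For Catsper2, whose 6 counts are given above, the log2 fold change of HFD over LFD was 1.63 ± 0.68 (adjusted p = 0.322 in edgeR), and on the scaled values HFD 3 lay among the LFD libraries. Catsperb was at 1.40 ± 1.01 (adjusted p = 0.604) and Catsperd at 1.45 ± 0.96 (adjusted p = 0.569). The direction of all of these turned with the scaling: with library totals Catsper2 was at -0.15, Catsperb at -0.31 and Catsperd at -0.39, with the median of all genes tested moving from -0.07 to -1.84, and with the summed spermatid markers as the scale they were at -0.15, -0.37 and -0.36. Per 1000 counts of the 7 spermatid markers, Catsper2 had 3.94 to 7.99 counts in HFD sperm and 4.77 to 8.66 in LFD sperm, so that both diets overlapped almost fully. The spermatid markers themselves did not pass the test either, and 6 of 7 were tested, with log2 fold changes of 0.92 to 2.00. Odf1, the highest of those tested in both diets, was at 2.00 ± 0.68 (adjusted p = 0.272 in edgeR).

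Hvcn1 was the gene whose diet groups did not overlap on any of the 4 scales tried (library totals, nuclear counts, TMM and spermatid marker counts). It had 0, 5 and 2 counts in HFD libraries 1, 3 and 4. Its 22, 12 and 12 counts in LFD libraries 1, 2 and 4 all lay above these. After TMM scaling, 12.2% of all genes tested also separated with HFD below LFD, and 8.21% with HFD above LFD. These shares were not counted on the other scales. The log2 fold change was -1.52 ± 1.10 (adjusted p = 0.607 in edgeR), and it passed the filter only through the LFD libraries. Between 0.591 ± 0.617 CPM in HFD and 5.39 ± 1.91 CPM in LFD sperm (SD, n = 3), the exact two-sided permutation test gave p = 0.1, the smallest that 3 against 3 libraries allow. With library totals in edgeR the log2 fold change was -3.07 with an adjusted p of 0.0547. Under that setting 3357 of the 8643 genes tested were called, 3356 of them lower in HFD. The median of all genes tested was -1.84 there.

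Beside this difference, the summed markers of the epididymal epithelium were at 1639 to 2879 CPM in HFD and 3016 to 24985 CPM in LFD sperm, without overlap, but they overlapped on nuclear counts, after TMM scaling (3754 to 4094 against 2013 to 9810) and per spermatid marker count. The leukocyte markers overlapped, at 10.7 to 39.9 CPM in HFD and 17.2 to 85.5 CPM in LFD sperm. Ptprc, the pan-leukocyte gene CD45, had 12, 74 and 11 counts in HFD libraries 1, 3 and 4 and 26, 48 and 21 in LFD libraries 1, 2 and 4, and the B cell genes Cd79a and Cd79b had 1 and 2 counts over all 6 libraries. Itgam, the integrin subunit CD11b of phagocytes, was at 0.334, 8.62 and 3.26 CPM in the HFD libraries and at 7.21, 17.7 and 56.6 CPM in the LFD libraries, so that the diets overlapped only through HFD 3, which lay above LFD 1. Csf1r, another leukocyte marker looked up, was at 4.01, 9.85 and 4.89 CPM in HFD libraries 1, 3 and 4. It was at 0.687, 4.92 and 16.8 CPM in LFD libraries 1, 2 and 4, so that the diets overlapped. LFD 1, which had the most Hvcn1 counts, had the lowest Csf1r level and the lowest summed epididymal CPM of the 3 LFD libraries. Tctn1, which shares the 3′ end of Hvcn1, had 0, 13 and 13 counts in HFD libraries 1, 3 and 4 and 18, 17 and 59 in LFD libraries 1, 2 and 4. These separate by diet as CPM and per 1000 spermatid marker counts (0 to 1.07 against 1.11 to 8.61). On nuclear counts and after TMM scaling they overlap. The share of mitochondrial DNA counts was higher in all 3 HFD libraries, and a part of any of these in the Hvcn1 difference was not tested.

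The other 4 genes failed the filter and were compared by their summed counts with an exact 95% interval of the ratio. Kcnu1 had 28 counts in HFD and 8 in LFD sperm, a ratio of HFD over LFD of 2.78 (1.23 to 7.06) relative to library totals, of which 18 counts came from library HFD 4. The 3 HFD libraries, at 1.00 to 4.89 CPM, overlapped with the 3 LFD libraries, at 0.328 to 1.56 CPM, and the exact permutation test gave p = 0.3. They did not overlap on nuclear counts, at 6.37 to 23.3 against 0.927 to 2.81 CPM, or after TMM scaling, at 1.96 to 11.2 against 0.213 to 0.687 CPM, and there the exact permutation test gave p = 0.1, the smallest it can give. Per 1000 spermatid marker counts they overlapped again, at 0.296 to 0.896 against 0.0972 to 0.584. Catsper1 had 9 and 14 counts, a ratio of 0.510 (0.195 to 1.27), Catsper4 had 14 and 9 counts, a ratio of 1.24 (0.498 to 3.23), and Catsper3 had 7 and 2 counts, a ratio of 2.78 (0.529 to 27.4). On the TMM scale each of these ratios was higher, 9.10 for Kcnu1 (4.04 to 23.1), 1.67 for Catsper1 (0.638 to 4.15), 4.04 for Catsper4 (1.63 to 10.6) and 9.10 for Catsper3 (1.73 to 89.8). These intervals cover counting error only, and the libraries of both diets overlapped on all 4 scales for Catsper1, Catsper3 and Catsper4.

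**Figure D5:**
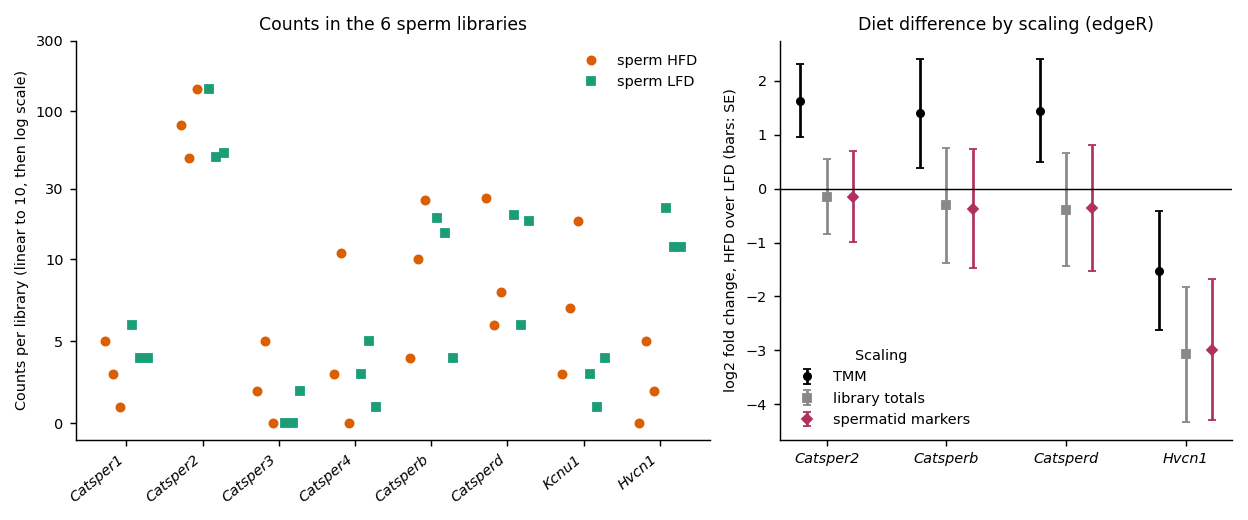
Left, counts of the 8 genes in the 3 HFD (orange circles) and 3 LFD (green squares) sperm libraries, on an axis linear to 10 and logarithmic above. Right, log2 fold change of HFD over LFD with standard error for the 4 genes that passed the filter, under TMM, library totals and the spermatid markers as scale. Hvcn1 is the gene whose points separate by diet on the left, and on the right Catsper2, Catsperb and Catsperd change sign with the scaling while Hvcn1 stays below 0.

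Of the related genes, 3 of the other CatSper genes (Catsperg1, Catsperg2 and Catsperz), 4 of the genes for transport, pH or cAMP and 1 relative of Kcnu1 were tested for diet in sperm, and none was called by edgeR. Adcy10 was furthest from 0 among them, at 2.97 ± 0.70 (adjusted p = 0.231), and its 3 HFD libraries lay above its 3 LFD libraries after TMM scaling, as did those of Catsperg1 (1.21 ± 0.72, adjusted p = 0.523 in edgeR) and 8.21% of all genes tested.

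Outside the germ line Catsper1, Catsper3, Catsper4, Catsperb and Catsperd had at most 10 counts in any library. Catsper2, Kcnu1 and Hvcn1 reached 48, 19 and 167 counts in a morula library. Catsper1 had no count in the 24 libraries of morula, liver, eWAT and gastrocnemius. Set against the floor of 3 counts over the 6 morula libraries together, its level in round spermatids was 4699-fold higher. The lower limit of the two-sided exact 95% interval was 3821-fold. Catsperb had 3 counts in 1 morula library and none in the other 23. Relative to library totals and pooled over libraries, round spermatids exceeded morulae 149-fold for Catsper2 (95% exact interval 129 to 174), 223-fold for Catsper3 (151 to 344), 1093-fold for Catsper4 (594 to 2280), 419-fold for Catsperd (282 to 655) and 139-fold for Kcnu1 (112 to 176). No test was run between these tissues.

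Catsper2 was the CatSper gene with counts in nearly every somatic library. It had 3 to 12 counts in all 6 liver libraries (3.15 ± 1.77 CPM, SD, n = 6), 11 to 25 in all 6 eWAT libraries (6.61 ± 1.32 CPM) and 0 to 7 in gastrocnemius, where 5 of 6 libraries had a count (1.74 ± 1.24 CPM). In morulae it had 20 to 48 counts per library (2.43 ± 0.838 CPM). Pdia3, its neighbour at the shared start, was at 224 ± 34.8 CPM in liver, 188 ± 24.5 in eWAT, 16.6 ± 4.82 in gastrocnemius and 358 ± 42.1 in morulae, and whether any Catsper2 count came from Pdia3 transcripts was not tested. Catsper4 had 14 counts over 5 of 6 gastrocnemius libraries and none in liver. Kcnu1 had 18 counts over 5 of 6 eWAT libraries, 79 over all 6 morula libraries, 1 in liver and none in gastrocnemius.

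Hvcn1 was again the exception. It was higher in morulae than in round spermatids, at 97 to 167 counts per morula library (10.6 ± 2.66 CPM, SD, n = 6) against 0.419 ± 0.110 CPM, a ratio of 25.2 (95% exact interval 19.5 to 33.1), without overlap between the libraries. In morulae it made up 61.4% to 76.7% of the counts of all 8 genes, and in round spermatids 0.0271% to 0.0516%. In eWAT it had 5 to 53 counts per library (6.12 ± 4.57 CPM), in liver 2 counts in 1 library and in gastrocnemius 3 counts in 2 libraries. The eWAT library with 53 Hvcn1 counts also held 245 spermatid marker counts against 1 to 6 in the other 5, and 41 epididymal marker counts against 0 to 12, and without it Hvcn1 in eWAT was at 4.33 ± 1.40 CPM (n = 5). The 9 leukocyte markers, which summed to 214 to 265 CPM in eWAT, all had counts there, and their part in the Hvcn1 level was not tested. Tctn1, which shares the 3′ end of Hvcn1, was at 57.0 ± 3.73 CPM in round spermatids and 6.46 ± 2.08 CPM in morulae, the opposite order to Hvcn1.

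Across the 36 libraries, the genes whose log2(CPM + 1) was most like the mean of the 8 genes were Ccdc7b (Pearson r = 0.996), Dpy19l2, which is needed to form the sperm acrosome (0.994), Adam2, the sperm surface protein fertilin beta (0.993), Ccdc38 (0.992) and Ppp3r2, a testis subunit of calcineurin (0.992), out of 18149 genes with at least 1 CPM in round spermatids. Each of the 8 genes set against the mean of the other 7 gave r of 0.937 for Catsper2 to 0.986 for Catsper1, and -0.259 for Hvcn1. These correlations are a description over libraries that share tissues, kits and depths, and they follow chiefly the gap between round spermatids and the rest.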

How the data were processed

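RNA-seq of 6 tissues was used, with 6 libraries each. Per the methods of the study, the authors used BBDuk for trimming, STAR for alignment (GRCm38) and featureCounts for gene counts, all inside 1 software suite (versions not given in the sources used here). The deposited values are raw counts with a counted length per gene, used as deposited. Round spermatid, sperm and morula libraries were whole-transcript (Nextera), and liver, eWAT and gastrocnemius libraries were 3′ tag libraries, so levels per length were taken only in the former and no test was made across kits. The tissue of a column came from its table, and the diet of sperm columns from the letter in their names. The methods give 3 mice per diet for round spermatids; for the other libraries neither they nor the labels were found to tie replicates to separate animals, so p-values measure the spread between these samples. No pair of libraries agreed within sampling noise (chi-square per degree of freedom at least 3.50 in round spermatids and 18.9 in sperm).

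Symbols were matched by identifier (54723 of 54838 in sperm, 51633 of 51912 in round spermatids). Of the 51746 genes in both tables, 2819 differ in counted length, which were kept. In R 4.3.3, edgeR 4.0.16 was fitted with filterByExpr (minimum count 10), TMM scaling and the two-sided quasi-likelihood test, with Benjamini-Hochberg adjustment over all genes tested and a threshold of 0.05. Sperm HFD over LFD used 6 libraries, and round spermatids over the mean of both sperm groups used 12. The study named NOISeq for its own test. Alternatives were DESeq2 1.42.0, limma-voom (limma 3.58.1), DESeq2 size factors, library totals, mitochondrial DNA genes left out, no filter, each sperm library left out, a block by column-name number and either diet alone. Scaling by spermatid markers, the overlap of the diets on other scales and leaving out 1 eWAT library were added after seeing the data. The fits were tested on simulated counts. Genes named are the 8, fixed lists of related genes and cell markers, and the 5 genes most like the 8 in profile. The genes and lists were chosen with earlier results of these data known. Promoters came from RefSeq (GRCm38.p6). Python 3.11.15 and matplotlib 3.10.9 made the plots.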

Additional observations from a re-analysis of the deposited data

Results flagged for a closer look

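In each group of 6 libraries, the gap between the most extreme library and its nearest neighbour was set against the whole range of the group. Of 30 pairs of a gene and a tissue with any spread, 10 had a library standing apart, and 7 of these 10 rest on a library with at most 3 counts. The rule flags about 1 in 20 by chance for normally distributed values. That rate does not hold for groups with few counts, where a single library with a count is always flagged.

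With more counts, Catsper2 was at 4.05 CPM (48 counts) in 1 morula library against 1.74 to 2.46 CPM in the other 5. Hvcn1 was at 0.637 CPM (16 counts) in 1 round spermatid library against 0.324 to 0.397 CPM, and at 15.1 CPM (53 counts) in 1 eWAT library against 2.13 to 5.44 CPM. That eWAT library is the one with spermatid and epididymal marker counts described above, and it also had the highest values of Catsper4 in eWAT, 0.569 CPM (2 counts) with 0 in the others, and of Catsperd, 0.854 CPM (3 counts) with 0 to 0.266 CPM in the others.

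The remaining ones were Catsper3 in eWAT at 0.266 CPM (1 count), Catsperb in morulae at 0.253 CPM (3 counts, in the library with the highest Catsper2 level), Catsperd in gastrocnemius at 0.364 CPM (1 count), Kcnu1 in liver at 0.392 CPM (1 count) and Hvcn1 in liver at 0.784 CPM (2 counts), each with 0 in the other 5 libraries.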

How the results depend on the processing

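In round spermatids over sperm, all 8 genes kept their direction and their call under each of the 15 alternatives run, and the number of genes called over the whole table stayed between 14024 and 18775, against 16107. The number without 1 sperm library ranged from 16702 to 17952 for all genes and was 8 for the members.

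The sperm diet comparison depended on the processing. Across all features 0 genes were called, as without any 1 library (0 to 0), but 3357 with library totals in edgeR, 41 without the filter on low counts, 295 with DESeq2 and 2 with the replicate block. None of the members was called under any of the alternatives run (0 to 0 without 1 library). The log2 fold change of Catsper2, 1.63, reversed to -0.15 with library totals and to -0.15 with spermatid markers as the scale, that of Catsperb, 1.40, to -0.31 and -0.37, and that of Catsperd, 1.45, to -0.39 and -0.36. The cause was not tested. Without 1 library in turn, Catsper2 ranged from 1.02 to 2.59, Catsperb from 0.18 to 2.01, Catsperd from 0.24 to 2.00 and Hvcn1 from -2.27 to -0.95. With mitochondrial DNA genes left out, Hvcn1 failed the filter and gave no value.

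The column-name numbers 1 and 4 occur in both diets, and their libraries deviated from the diet means with a correlation of 0.105 and -0.149. Pairs of an HFD and an LFD library with unlike numbers ran from -0.243 to 0.280. With only 2 pairs of like number, these values cannot tell whether the numbers pair the samples. In the replicate block over these 2 pairs Catsper2 was at 2.07 (adjusted p = 0.757) and Hvcn1 at -2.37 (adjusted p = 0.931).

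Depth limits the sperm values, since Catsper1, Catsper3, Catsper4 and Kcnu1 rest on 9 to 36 counts over 6 libraries, and the 3′ tag tables give no level per length.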
